A study of Mus musculus with 16 samples.

Results

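The distal end of mouse chromosome 2 carries a cluster of KRAB zinc finger genes, measured here with 42 of the 55681 probes of a single-colour expression array. The members are the non-control probes placed between 175000000 and 178500000 on chromosome 2 (mm9), without the 71 probes that have a coordinate in place of a gene name. They carry 33 names. Members were classed by hand from names, descriptions and sequence matches. By class, 31 probes stand for 23 zinc finger genes or transcripts of the cluster, 5 for other transcripts and 6 for 5 other genes. Of the 42 probes 36 were bright enough to be tested. The cluster was picked out with the difference between genotypes in these same arrays already known, so every value of that difference is a description and supports nothing by itself.

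Splenic B cells, purified with beads against the B cell surface protein B220, came from 3'RR-deficient and from wild-type mice. The 3' regulatory region, or 3'RR, is a group of enhancers at the end of the antibody heavy chain locus on chromosome 12, so no zinc finger gene was itself targeted. The groups were 3'RR-deficient mice with the strain entry BALBC, described as a knockout of the 129 IgH allele on a BALBC background, and wild-type mice with the strain entry 129. Each of 2 slides held 4 deficient and 4 wild-type arrays. Deficient arrays were numbered 9 to 12 on slide 1 and 1 to 4 on slide 2, and wild-type arrays 2, 5, 6 and 8 on slide 1 and 1, 2, 3 and 5 on slide 2. All samples shared the same RNA amount and labelling method. Genotype and strain entry go together on every array and cannot be told apart, and slide, samples and scan day go together as well. The series' own text counts 4 mice of each genotype and the labels do not tie arrays to mice, so p-values cover only the spread among these arrays, part of which may be technical. Ages of the mice were not found in the labels.

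KRAB zinc finger proteins bind DNA through a tandem row of C2H2 zinc fingers. The KRAB box at the other end of the protein recruits Trim28 (KAP1), and through it the histone methyltransferase Setdb1 and other silencing proteins. The family is known for silencing transposable elements, and its genes lie in clusters that grew by repeated duplication, so that neighbouring genes are close copies of each other. For most genes of the distal chromosome 2 cluster no individual role is known.

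The probes show how alike the members are, and the following sequences are printed because they carry the values given later. Capitals mark ATACAGGAGAGA, the run of 12 bases most frequent among the 31 zinc finger probes, which covers codons of the linker between adjacent fingers. The probe of Gm14435 lies in the KRAB box codons and has no such match, and neither has that of Etohi1. In AK145429 the capitals mark a CCAAT box. All are given 5' to 3' as the array files hold them.
Gm14435: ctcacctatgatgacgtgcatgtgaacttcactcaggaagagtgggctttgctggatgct
Gm14391: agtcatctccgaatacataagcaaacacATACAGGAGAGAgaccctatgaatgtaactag
100043387: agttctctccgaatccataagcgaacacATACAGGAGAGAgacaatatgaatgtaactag
LOC100504873: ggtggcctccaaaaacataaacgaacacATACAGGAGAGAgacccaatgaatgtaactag
Zfp931: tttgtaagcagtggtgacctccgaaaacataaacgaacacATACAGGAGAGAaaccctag
Gm14325: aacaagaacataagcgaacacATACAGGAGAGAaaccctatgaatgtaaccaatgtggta
Etohi1: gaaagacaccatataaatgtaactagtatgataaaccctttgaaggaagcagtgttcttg
AK145429: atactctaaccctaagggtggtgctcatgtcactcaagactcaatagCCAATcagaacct

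The probes of Gm14391 and 100043387 shared 54 of 60 bases, and that of LOC100504873 shared 51 of 60 with Gm14391. The linker letters occurred in 10 of the 42 member probes (23.8%), against 19 of all 55681 probes (0.0341%), on either strand. The most frequent such run among the other zinc finger probes, ATGTGGTAAAGC, covers codons at the second cysteine of a finger and occurred in 8 member probes (19%), against 20 probes of the array (0.0359%). Either run was present in 18 of the 31 zinc finger probes, and both were picked for being frequent there. By the accessions the files list, 13 of the 31 probes belonged to 2 or more current RefSeq genes, 5 to 1 and 13 to none. Signal at one probe can therefore come from several near-identical copies, and a value is that of the probe rather than of a single gene. Of the 31 probes, 13 also matched a probe placed outside the window at 45 or more of 60 bases. Their signal need not all come from the cluster. By accession some names have changed in RefSeq, with Gm14431 now Zfp967 and Etohi1 now Zfp971, and 100043387 now Gm14305.

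The copies also share their promoters. RefSeq promoters (GRCm38.p6, 300 bases around each start) were given for 41 genes from Gm14393 to Zfp931. The longest run found in at least 28 of these genes on 1 strand was ACTCTAACCCTAAGGGTGGTGCTCATGTCA. On either strand it occurred in 29 of the 41 (70.7%) and in no promoter elsewhere, which makes 29 of 27025 genes in all (0.107%). The CCAAT box run CCAATCAGA, searched on both strands, occurred in 29 of the 41 too, against 565 genes in all (2.09%). Aligned without gaps on CTAACCCTAAGGG, a part of the longer run, 30 of these promoters had a median pairwise identity of 94.6%, and the lowest pair 28.7%. The promoter of Zfp971, the current name of Etohi1, and that of Zfp931, the last zinc finger gene of the cluster, matched at 262 of 270 bases (97.0%). They are shown with both shared runs in capitals. That of Zfp971 lies at chr2:178023034-178023333 on the plus strand and that of Zfp931 at chr2:178078376-178078675 on the minus strand.
Zfp971: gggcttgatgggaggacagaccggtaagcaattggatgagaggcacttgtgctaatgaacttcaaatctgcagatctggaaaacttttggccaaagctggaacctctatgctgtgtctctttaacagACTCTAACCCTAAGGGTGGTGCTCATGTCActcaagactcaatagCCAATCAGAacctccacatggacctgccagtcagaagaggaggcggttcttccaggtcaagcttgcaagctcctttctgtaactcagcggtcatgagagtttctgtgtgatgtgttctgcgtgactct
Zfp931: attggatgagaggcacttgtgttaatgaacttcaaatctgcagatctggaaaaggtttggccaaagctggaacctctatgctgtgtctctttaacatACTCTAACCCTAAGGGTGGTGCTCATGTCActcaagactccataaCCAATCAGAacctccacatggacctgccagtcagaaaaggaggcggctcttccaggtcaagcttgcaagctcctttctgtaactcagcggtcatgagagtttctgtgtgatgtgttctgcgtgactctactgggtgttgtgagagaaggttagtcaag

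Levels are log2 of the processed spot signal minus the 75th percentile of that array, so 0 is the 75th percentile, and differences are deficient minus wild type on that log2 scale. To be tested, a probe had to be well above background on 4 or more of the 16 arrays. Before scaling, the 75th percentile of signal spanned 576 to 851 across slide 1 arrays and 596 to 990 across slide 2 arrays, and the number of arrays limits the precision. Standard errors (SE) and adjusted p-values are from limma, adjusted by Benjamini-Hochberg over all 32881 tested probes, and a probe is called at an adjusted p under 0.05.

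Signal at the zinc finger probes of the cluster was higher in deficient B cells on both slides. Whether the probes match the BALBC and 129 copies of these genes equally well was not tested. Of the 28 tested zinc finger probes 26 were called higher over both slides with the same sign on each, and 0 were called lower by limma's test, also at an unadjusted p under 0.05. In the same direction and by the same rule 6.79% of all tested probes were called, and 8.03% in the other. By slide, 25 of the 36 tested members were called higher on slide 1, beside 9.18% of all tested probes, and 1 lower, beside 14.1%. On slide 2 they were 25, beside 3.65%, and 0, beside 3.82%. Since the cluster was chosen from this contrast, nothing is read from these shares. The 26 probes stood for 20 of the 21 tested zinc finger names. Among them Etohi1 and C330013J21Rik passed the filter on dim probes only through deficient arrays, the group where they read high. The median difference of the 28 probes was 1.02 on slide 1 and 1.33 on slide 2, against -0.07 and 0.01 over all tested probes. Groups did not overlap, with every deficient array above every wild-type array on either slide, for 23 of the 28 probes, against 1.82% of all tested probes. In RNA of many cells, more cells of a type and more RNA per cell cannot be told apart.

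**Figure D1:**
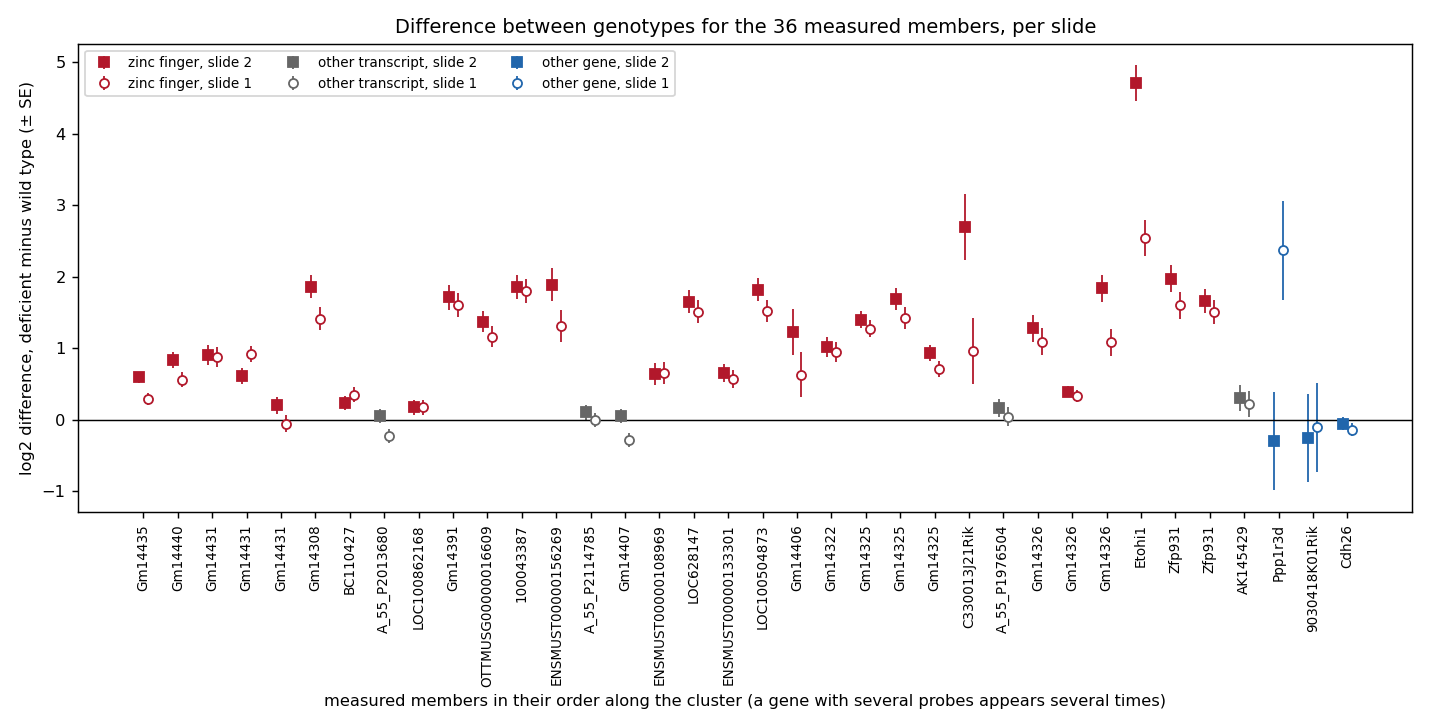
Difference in level, deficient minus wild type (log2, with its standard error), of the 36 tested members in their order along the cluster, with filled squares for slide 2 and open circles for slide 1. Red zinc finger probes lie above 0 on both slides, except 1 probe of Gm14431 that lies at -0.06 on slide 1, while grey and blue probes of other transcripts and genes lie near 0 apart from Ppp1r3d on slide 1.

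Etohi1 had the largest fitted difference over both slides, with wild-type signal below the background limit. Its level on slide 1 was -3.48, -3.85, -4.20 and -4.24 in deficient arrays, against -6.80, -6.42, -6.39 and -6.33 in wild-type arrays. On slide 2 it was -2.22, -3.14, -2.95 and -1.87 in deficient arrays, against -7.49, -7.17, -7.30 and -7.05 in wild-type arrays. No wild-type array of either slide was well above background, while 3 of 4 deficient arrays of slide 1 and 4 of 4 of slide 2 were. Signal in deficient arrays of slide 1 was thus at least 1.71-fold higher, and that of slide 2 at least 7.04-fold, set against whichever was higher on each wild-type array, the dim spot's own signal or the dimmest signal that passed the background limit. The fitted difference of 3.63 (SE 0.18) over both slides rests on wild-type signals below that limit.

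A similar pattern was seen at 100043387, with -2.59, -2.5, -2.5 and -2.59 in deficient arrays, against -4.73, -4.16, -4.28 and -4.21 in wild-type arrays on slide 1. No wild-type array of slide 1 was well above background there. By the rule used for Etohi1 the deficient arrays were 3.48-fold higher, which is also the fitted fold. It rests on the dim spots' own signal, so it is no lower bound and is not ranked against that of Etohi1. On slide 2, where all arrays measured the probe, the level was -1.08, -1.51, -1.5 and -0.76 in deficient arrays, against -2.99, -3.07, -2.91 and -3.33 in wild-type arrays, which is 3.64-fold higher. C330013J21Rik, a synonym of Zfp972, was well above background only on the 4 deficient arrays of slide 2, at -3.96, -4.03, -4.14 and -3.72, against -6.10, -6.81, -7.56 and -6.16 in the wild-type arrays, at least 2.63-fold higher. On slide 1 it was dim in both genotypes and no fold is given. The transcript ENSMUST00000134982, which was too dim to be tested, had 2 of 4 deficient arrays of slide 2 well above background and no other array of the series. LOC628110 was not well above background anywhere, and the second probe of LOC100862168 only on 1 array of each genotype on slide 2.

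**Figure D2:**
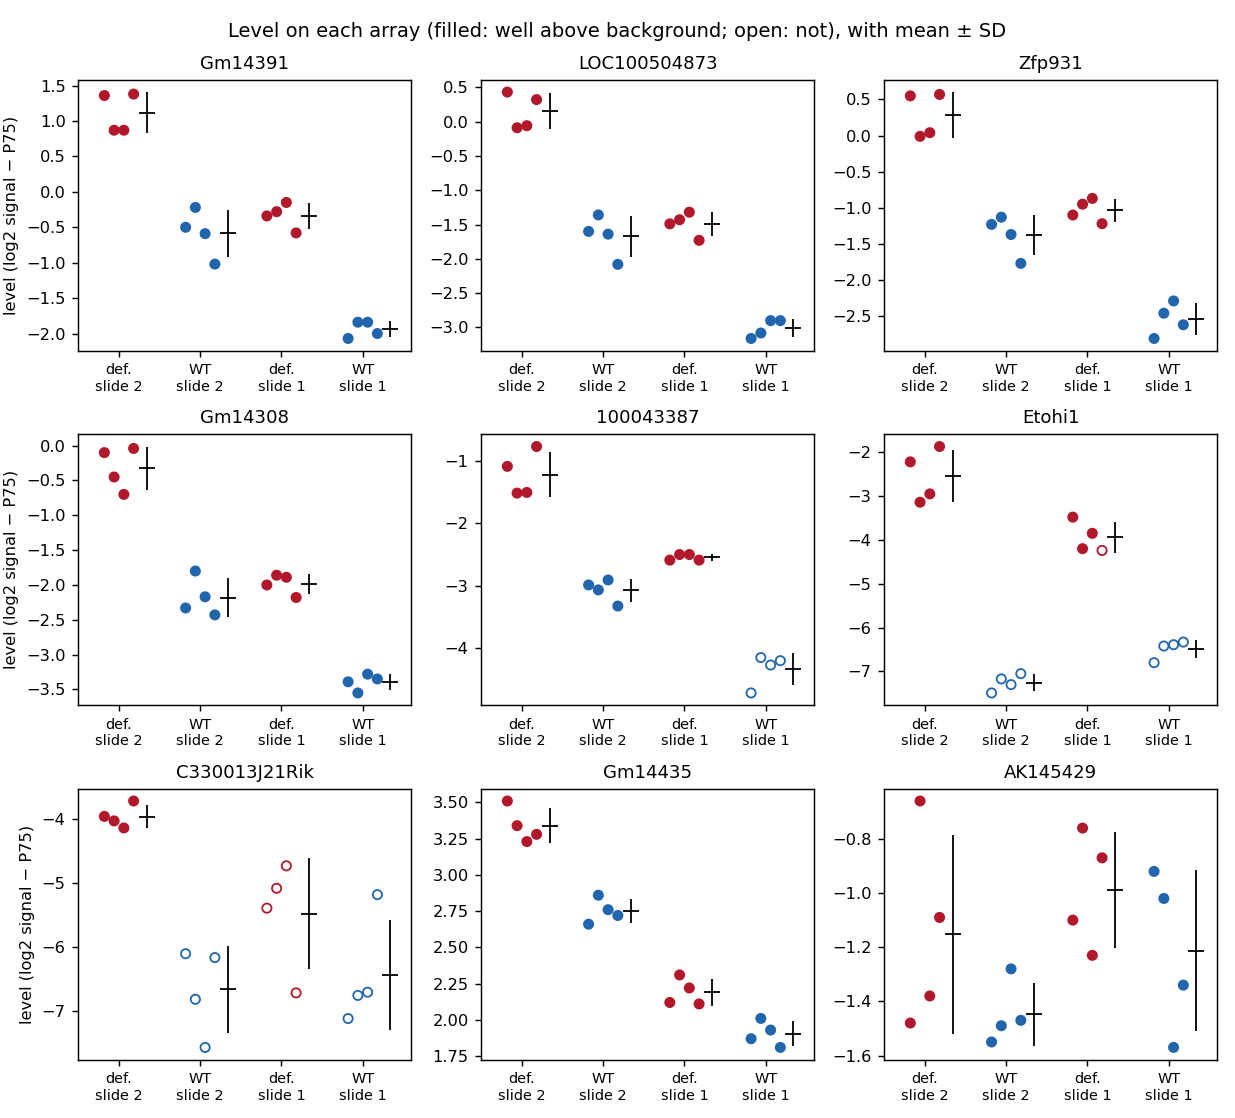
Level (log2 signal minus the array's 75th percentile) of 9 probes on every array, in red for deficient and blue for wild-type arrays, with filled points well above background and open points not, and bars for the mean and SD of 4 arrays. In all panels but C330013J21Rik on slide 1 and AK145429 the red points of a slide lie above its blue points; the Zfp931 panel is the printed probe.

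Most probes of the cluster were bright enough on all 16 arrays. Of the 28 tested zinc finger probes, 24 were well above background on every array, and 22 of these were among the 26 called higher. The differences of these 22 lay between 0.29 and 1.60 on slide 1, which is 1.22-fold to 3.03-fold, and between 0.23 and 1.97 on slide 2, which is 1.17-fold to 3.92-fold. The SE over both slides was between 0.06 and 0.16.

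Zfp931, a C2H2 zinc finger gene at the far end of the cluster, had 2 probes. At the printed one the level was -1.10, -0.87, -0.95 and -1.22 in deficient arrays, against -2.81, -2.46, -2.29 and -2.62 in wild-type arrays on slide 1. On slide 2 it was 0.55, -0.01, 0.04 and 0.57 in deficient arrays, against -1.23, -1.13, -1.37 and -1.77 in wild-type arrays. The groups were well apart on both slides, with a difference of 1.59 (SE 0.12) over both. The second probe gave 1.78 (SE 0.14), so both probes of the gene gave like values.

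Probes that share much of their sequence are given side by side. LOC100504873 stood at -1.49, -1.32, -1.43 and -1.73 in deficient arrays, against -3.16, -3.08, -2.90 and -2.90 in wild-type arrays on slide 1. Gm14391 stood at -0.34, -0.15, -0.28 and -0.58 in deficient arrays, against -2.07, -1.84, -1.84 and -2.0 in wild-type arrays on slide 1. Neither gene's groups overlapped on slide 1, nor on slide 2, where the differences were 1.82 (SE 0.16) for LOC100504873 and 1.71 (SE 0.17) for Gm14391. On slide 2 Gm14391 reached 1.36, 0.87, 0.87 and 1.38 in deficient arrays, against -0.50, -0.22, -0.59 and -1.02 in wild-type arrays. LOC628147, whose probe shared 49 of 60 bases with one of Gm14431, differed by 1.51 (SE 0.16) on slide 1 and 1.65 (SE 0.16) on slide 2. That probe of Gm14431 differed by 0.88 (SE 0.14) and 0.91 (SE 0.14), so likeness of sequence did not come with likeness of the difference in every pair.

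Gm14308, measured at a finger probe with ATGTGGTAAAGC, had -2.0, -1.89, -1.86 and -2.18 in deficient arrays, against -3.39, -3.55, -3.28 and -3.35 in wild-type arrays on slide 1. On slide 2 the level was -0.10, -0.45, -0.70 and -0.04 in deficient arrays, against -2.33, -1.80, -2.17 and -2.43 in wild-type arrays. Both slides separated the genotypes completely. ENSMUST00000156269 differed by 1.31 (SE 0.23) on slide 1 and 1.89 (SE 0.23) on slide 2. Its probe is identical over all 60 bases to one placed outside the window on the same chromosome, so the locus of its signal is uncertain. OTTMUSG00000016609 differed by 1.16 (SE 0.15) and 1.37 (SE 0.15). Gm14322 differed by 0.95 (SE 0.14) and 1.01 (SE 0.14), each with no overlap of the groups on either slide. Gm14406, also a finger probe, was dimmer, with 1 deficient and no wild-type array of slide 1 and 4 deficient and 3 wild-type arrays of slide 2 well above background, and differed by 1.23 (SE 0.32) on slide 2.

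The 3 probes of Gm14325 and the 3 of Gm14326 were all higher but differed in size. Gm14325 gave 1.34 (SE 0.09), 1.56 (SE 0.11) and 0.82 (SE 0.08) over both slides, the last at the printed probe, which was also its brightest. For Gm14326 the differences were 1.19 (SE 0.14), 0.36 (SE 0.06) and 1.46 (SE 0.14). The probes of Gm14431 gave 0.89 (SE 0.10), 0.76 (SE 0.07) and 0.07 (SE 0.08), the last not called, with -0.69, -1.0, -0.63 and -0.78 in deficient arrays, against -0.33, -0.78, -0.83 and -0.91 in wild-type arrays on slide 1. That probe carried neither finger motif.

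The remaining called probes had smaller differences. Gm14435, measured at its KRAB box, had 2.12, 2.22, 2.31 and 2.11 in deficient arrays, against 1.87, 2.01, 1.93 and 1.81 in wild-type arrays on slide 1. On slide 2 it had 3.51, 3.34, 3.23 and 3.28 in deficient arrays, against 2.66, 2.86, 2.76 and 2.72 in wild-type arrays. The step was small but no array overlapped, with differences of 0.29 (SE 0.08) and 0.59 (SE 0.08). Gm14440 differed by 0.70 (SE 0.08) over both slides, ENSMUST00000108969 by 0.65 (SE 0.11), ENSMUST00000133301 by 0.61 (SE 0.10) and BC110427, whose groups overlapped on slide 2, by 0.29 (SE 0.07). LOC100862168 differed by 0.17 (SE 0.07) and was not called.

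Probes with and without a finger run were among those called. The 17 tested probes with either run had a median difference of 0.95 on slide 1 and 1.23 on slide 2, with 16 called higher over both slides. The 11 with neither run had 1.08 and 1.37, with 10 called. Only exact matches to the runs were sought, so probes with neither can still lie in finger codons.

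The other members of the window gave differences near 0 over both slides, except Ppp1r3d. Of the 5 other transcripts 0 were called over both slides by limma's test, and 0 at an unadjusted p under 0.05, and their median difference was 0.04. Gm14407, a name of the same series as the zinc finger genes, was kept among them because its probe matched 53 of 60 bases of a probe for the ribosomal protein gene Rpl27a. Zinc finger probes that matched probes outside the window at 45 or more bases stayed in their class, so the sorting did not follow 1 rule. Gm14407 was very bright, with 7.56, 7.70, 7.77 and 7.69 in deficient arrays, against 7.92, 8.12, 7.87 and 7.97 in wild-type arrays on slide 1, and was called lower there with a difference of -0.29 (SE 0.10), but not over both slides. The unnamed probes differed by -0.09 (SE 0.07), 0.04 (SE 0.07) and 0.10 (SE 0.09) over both slides.

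AK145429 lies in the shared promoter sequence itself. Its 60 bases, printed above, matched the promoters of 11 cluster genes at every base and those of 27 of 41 at 58 or more. Its level was -1.10, -1.23, -0.76 and -0.87 in deficient arrays, against -0.92, -1.02, -1.57 and -1.34 in wild-type arrays on slide 1. On slide 2 it was -1.48, -0.66, -1.38 and -1.09 in deficient arrays, against -1.55, -1.49, -1.28 and -1.47 in wild-type arrays. Unlike the probes in the fingers and the KRAB box, its groups overlapped on both slides, and the difference of 0.26 (SE 0.13) was not called.

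The genes beyond the last zinc finger gene did not follow it. Cdh26, a cadherin gene next to the far edge of the window, was measured on all arrays and differed by -0.10 (SE 0.07). Ppp1r3d, which encodes a glycogen-targeting subunit of protein phosphatase 1, was well above background on 4 deficient and 2 wild-type arrays of slide 1, and was called higher there, with a difference of 2.37 (SE 0.69) and an adjusted p of 0.0243 from limma. On slide 2 the difference was -0.30 (SE 0.69), and 0 deficient arrays and 1 wild-type array measured it. Its groups overlapped on both slides. 9030418K01Rik, now Fam217b, differed by -0.19 (SE 0.44). Phactr3, a phosphatase and actin regulator, was not well above background on any array at either probe, and Sycp2, a component of the synaptonemal complex of meiosis, only on 1 deficient array of slide 2.

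The window's limits cut through the cluster at its start. The named probes nearest before it were an unnamed probe too dim to be tested, ENSMUST00000099000, which differed by -0.21 on slide 1 and 0.98 on slide 2, and ENSMUST00000108929, which differed by 0.22 and 0.20. Gm14393 (mm9, chr2:174887050) lies before these, with the first member, Gm14435, at chr2:175108805. At a probe measured on all arrays Gm14393 differed by 1.16 on slide 1 and 1.5 on slide 2 with no overlap of the groups, and a second probe was too dim to be tested. Gm14439, next to it, had a level between 7.61 and 8.25 as group means and differed by -0.21 and 0.14. After the last member, Cdh26 (chr2:178222008), an unnamed probe differed by 0.19 and -0.38 and 4930591A17Rik by -0.53 and 0.01, and 3 probes of Cdh4 were not well above background anywhere. The flank before the window, which holds Gm14393, had 50 tested named probes. Of these 9 were called higher and 4 lower over both slides with 1 sign on each. Over the 85 of the flank after it these counts were 8 and 5. Of all tested probes 6.79% were called higher by that rule and 8.03% lower. Median differences of the flanks were 0.07 and -0.04.

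Zinc finger genes elsewhere did not show the difference as a group. Of 516 tested probes with zinc finger names outside the window, 21 were called higher and 59 lower with 1 sign on both slides, with medians of -0.11 on slide 1 and 0.01 on slide 2. By the same rule 6.79% of all tested probes were called higher and 8.03% lower. Zinc finger names of a comparable cluster on chromosome 13 had 0 of 28 called higher and 5 lower over both slides by limma, with 0 and 6 at an unadjusted p under 0.05. On chromosome 4, 0 of 5 were called by limma in either direction, with 1 higher at an unadjusted p under 0.05. These sets were taken by the form of the name alone, such as Zfp with digits, while the members were classed by hand. Of all 72 tested named probes of the chromosome 13 window, 3 were called higher and 9 lower with 1 sign on both slides. Of the 78 on chromosome 4 these were 6 and 11. Single genes differed by more than 1.22, the median of the cluster's 28 zinc finger probes over both slides. Zfp944 on chromosome 17 differed by 2.20 at a probe whose groups overlapped on both slides, while a second probe of it was called lower, at -0.58. Zfp951 on chromosome 5 differed by 1.65 with no overlap. Outside the window 16 tested probes with either finger run had medians of 0.13 on slide 1 and 0.23 on slide 2. Of these 16, 3 were called higher with 1 sign on both slides, beside 6.79%, and 0 lower by limma, with 4 and 0 at an unadjusted p under 0.05.

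**Figure D3:**
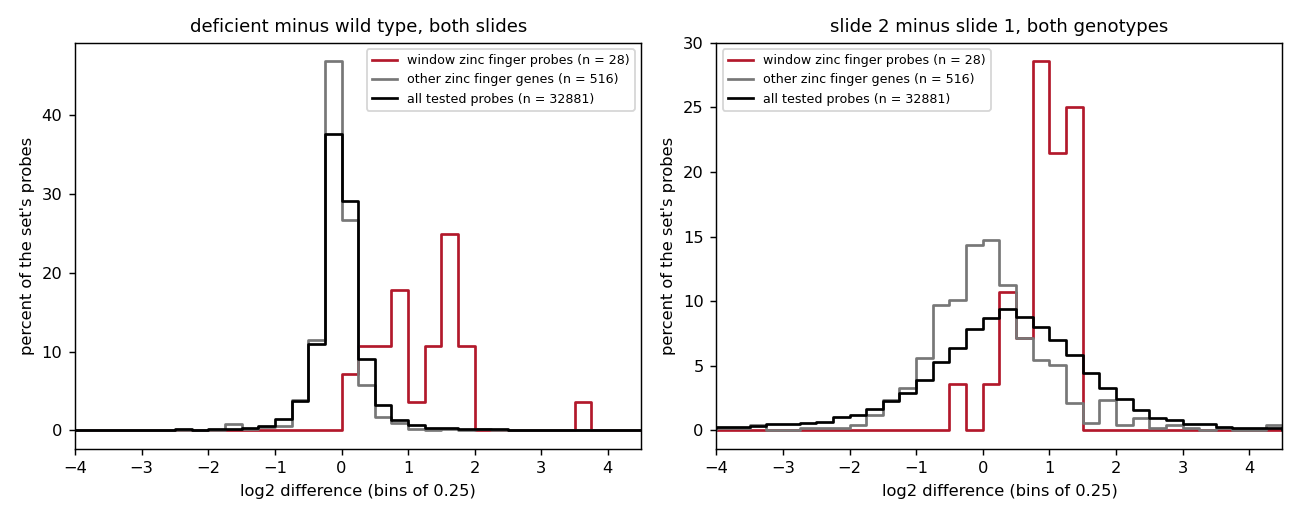
Share of probes in bins of 0.25 on the log2 scale, for the difference between genotypes over both slides on the left and for slide 2 minus slide 1 over both genotypes on the right. The red line of 28 cluster zinc finger probes has its median at 1.22 on the left and 0.99 on the right, against -0.03 and 0.37 for the black line of all tested probes and -0.05 and 0.02 for the grey line of 516 other zinc finger probes.

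RNA of genes for the proteins through which KRAB zinc finger proteins act was measured as well, at the brightest probe of each gene. Of a list of 30 genes for the co-repressor and its partners, 28 were tested, and 2 were called higher with 1 sign on both slides and 0 lower by limma, beside 6.79% and 8.03% of all tested probes. At an unadjusted p under 0.05, 6 were higher and 4 lower over both slides. On slide 1 alone 2 were called higher and 4 lower, beside 9.18% and 14.1%, and on slide 2 1 was called higher, beside 3.65%. Atf7ip, a partner of Setdb1, differed by 0.35 on slide 1 and 0.16 on slide 2, with no overlap on either. Pphln1, a subunit of the HUSH silencing complex, differed by 0.03 and 0.49. Dnmt3b, a DNA methyltransferase, was called lower over both slides with opposite signs, at -0.53 on slide 1 and 0.01 on slide 2. Neither Dnmt3b nor Pphln1 was called by limma with slide as an additive block, at adjusted p-values of 0.129 and 0.0537, or as a random block, at 0.135 and 0.106. The median over the 28 was -0.02 on slide 1 and 0.11 on slide 2.

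A comparison that the choice of the cluster did not use is that between the slides. Averaged over genotypes, 24 of the 28 zinc finger probes were called higher on slide 2 than on slide 1 and 1 lower, while of all tested probes 53.2% were called higher and 28.3% lower. Of 17 probes with either finger run 17 were called higher on slide 2, and 16 when arrays were scaled on their median. The median of these 17 was 1.21, against 0.37 over all tested probes. Of the 11 tested zinc finger probes with neither run 7 were called higher and 1 lower, with a median of 0.65. Scaling on the array median moved the value for all probes by over 0.1, to 0.03, and that of the 17 to 0.87. Both scalings shift all probes of an array alike, so the median of the 17 less that of all tested probes is 0.84 under each by construction. It was 0.71 with normexp background correction, 0.90 with a floor on dim signals and 0.91 with quantile normalization. Gm14406, 1 of the 17, passed the filter on dim probes mostly through slide 2, where 7 arrays measured it against 1 of slide 1. In wild-type arrays alone, 17 of 17 were called higher with a median of 1.08, beside 47.7% of all tested probes, and in deficient arrays alone 17 of 17 with a median of 1.32, beside 49%. For the 11 with neither run the step was smaller. In wild-type arrays 6 of them were called higher and 2 lower, with a median of 0.45 against 0.35 over all tested probes. In deficient arrays 9 were called higher and 0 lower, with a median of 1.04 against 0.39. Of the 16 tested probes outside the window with either finger run, 10 were called higher on slide 2 and 0 lower, with a median of 0.50.

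Single probes show the same step. LOC100504873 was 1.49 (SE 0.11, adjusted p 1.06e-08) higher on slide 2. Gm14308 differed by 1.43 (SE 0.11, adjusted p 1.74e-08) and Gm14435 by 1.0 (SE 0.06, adjusted p 5.62e-10). AK145429 did not pass, with -0.20 (SE 0.13, adjusted p 0.165), and the third probe of Gm14431 went the other way, with -0.40 (SE 0.08, adjusted p 0.000535). At Gm14391 the wild-type arrays of slide 2 averaged -0.58 and the deficient arrays of slide 1 -0.34, so genotypes are set side by side only within a slide. Slide, samples and scan day go together and cannot be told apart. In deficient arrays the summed level of 6 macrophage genes lay between 6.09 and 6.65 on slide 1 and 4.3 and 4.72 on slide 2. That of 5 neutrophil genes lay between 2.55 and 7.15, and -3.81 and -3.21. That of 4 natural killer cell genes lay between 2.85 and 4.56, and 0.92 and 1.47. Wild-type arrays differed in the same directions. Sums for other cell types follow below. The listed genes of B cells and of the co-repressor also moved between slides. Averaged over genotypes, slide 2 minus slide 1 ranged from -2.86 (Blk) to 0.11 (Ms4a1) over the 7 B cell genes. Over the tested co-repressor genes it ranged from -1.44 (Morc3) to 3.53 (Uhrf1). The parts of cell content and cell state in the step were not tested.

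The genotype differences of the slides were also set against each other, as a description. Among 36 tested members Etohi1 alone had a difference between the slides that passed limma's test, by 2.17 (SE 0.36, adjusted p 0.00284), where wild-type signal was not well above background. At Etohi1 slide 2 minus slide 1 was 1.40 in deficient arrays and -0.77 in wild-type arrays. The 2.17 thus rests in part on signal below the background limit, and nothing is read from it. Of all tested probes 8.72% passed with the larger difference on slide 2 and 5.14% with the larger on slide 1.

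Within the deficient arrays of slide 2 the cluster was not uniform. The signal of Ddx3y, which lies on the Y chromosome, passed the background limit on arrays 2 and 3 of that group but not on arrays 1 and 4, where Xist, the transcript of the inactive X chromosome, was at 2.11 and 2.29. For 24 of the 28 zinc finger probes arrays 1 and 4 both read above arrays 2 and 3, which held for 22.5% of all tested probes, and for 0 they both read below, which held for 22.9%. The median level of the 28 probes was 0.30 and 0.21 on arrays 1 and 4, and -0.20 and -0.18 on arrays 2 and 3. All 4 lay above the wild-type arrays of that slide, at -1.22, -1.13, -1.30 and -1.57, and each of these had Ddx3y. The part of sex in this was not tested. On slide 1 deficient arrays 11 and 12 and wild-type arrays 6 and 8 had Ddx3y, and the medians of the 28 probes were -0.96 and -1.18 on deficient arrays 11 and 12 and -1.08 and -1.03 on deficient arrays 9 and 10. With the state of Ddx3y as an added term the median difference of the members over both slides was 0.84, and among the 10 arrays with Ddx3y alone it was 0.82, against 0.91 over all arrays, an alternative chosen after seeing the data.

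**Figure D4:**
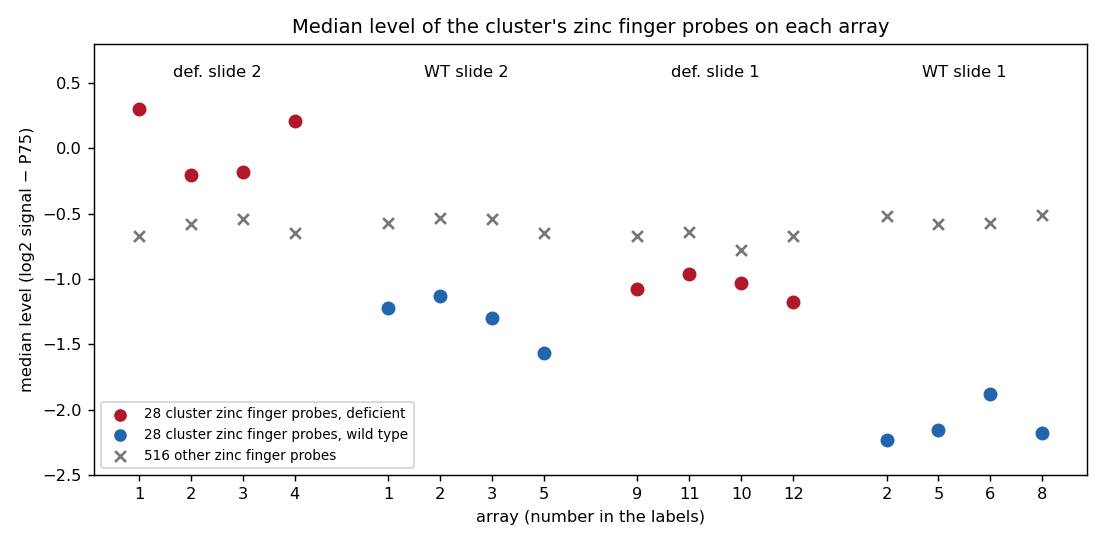
Median level (log2 signal minus the array's 75th percentile) on each array of the 28 tested zinc finger probes of the cluster, in red for deficient and blue for wild-type arrays, with grey crosses for 516 zinc finger probes elsewhere. Red points of slide 2 lie between -0.20 and 0.30 and blue ones between -1.57 and -1.13, those of slide 1 between -1.18 and -0.96 and between -2.23 and -1.88, while the crosses stay between -0.78 and -0.51.

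The cells measured carried B cell markers on every array. All 7 genes of a B cell list, among them Cd79a and Ms4a1, were tested, with a summed level from 9.66 to 9.85 in deficient and 9.51 to 9.95 in wild-type arrays of slide 1, and from 9.18 to 9.30 in deficient and 8.93 to 9.20 in wild-type arrays of slide 2. Of these 7, only Cd22 was called over both slides, higher by 1.07. Of 8 T cell genes 2 were called higher, and 2 of 4 tested erythroid genes, those with opposite signs on the slides. Of 6 macrophage, 5 neutrophil, 4 plasma cell, 4 natural killer cell and 2 platelet genes 0 were called by limma, and at an unadjusted p under 0.05 there were 2, both for macrophages. These counts are over both slides, while the median difference of the plasma cell genes was 0.62 on slide 1 and -1.22 on slide 2. Igj, the joining chain of secreted antibody, was called higher on slide 1, by 1.05, and on slide 2 Sdc1 was called lower, at -1.42, as was Prdm1, at -1.35. The summed plasma cell level lay between 7.12 and 7.55 in deficient and 7.56 and 8.03 in wild-type arrays of slide 2, and between 7.82 and 8.86 in deficient and 7.01 and 7.77 in wild-type arrays of slide 1, and its part in the result was not tested. The summed erythroid level lay between 0.97 and 3.31 in deficient and -2.46 and -2.13 in wild-type arrays of slide 2, led by the haemoglobin genes, and between 5.94 and 7.76 in deficient and 5.78 and 8.42 in wild-type arrays of slide 1. The part of erythroid RNA in the result was not tested. The summed T cell level lay between 6.14 and 6.85 in deficient and 6.08 and 6.68 in wild-type arrays of slide 2, and between 5.18 and 5.43 in deficient and 5.16 and 5.37 in wild-type arrays of slide 1, and its part in the result was not tested. Averaged over genotypes, slide 2 minus slide 1 was 4.68 at Thy1, but between -5.99 (Cd3g) and -0.17 (Cd4) at the other T cell genes. On slide 2 the T cell sum rests mostly on Thy1, so it is compared only within a slide.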

How the data were processed

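Total RNA of bead-purified splenic B cells was measured on 16 single-colour arrays. Per the file headers, Feature Extraction 10.7.3.1 made the deposited spot intensity and subtracted the background inside each array, and probe positions are in mm9. A second table holds log2 values that the authors deposited. For slide 2 samples the submitters' processing notes list limma, and no header or label says how the table was made, so it was an alternative within slides only.

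From the processed intensity, log2 was taken and the 75th percentile of each array subtracted. Spots marked as outliers were left out, repeat spots averaged, and probes kept that were well above background on 4 or more arrays. The fit used limma 3.58.1 in R 4.3.3 with 4 group means (genotype by slide), and Benjamini-Hochberg adjustment ran over 32881 probes at a threshold of 0.05. The same fit was tested on simulated data. For a group with no array well above background a lower bound of the fold is printed: the other group's mean over the dim spot's signal or, if higher, the lowest signal well above background on that array. At 100043387 on slide 1 this value equals the fitted fold and is no lower bound.

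Member classes were assigned by hand from names, descriptions and sequence matches. The rule for names takes zinc finger members called over both slides with 1 sign on each, the 14 largest in full, all measured members that are no zinc finger gene, genes next to the window's edges, and called genes of the co-repressor list. Members outside it, Zfp944 and Zfp951 were named after their values were seen. The members, the lists and the rule were chosen with earlier results of these data known. Alternatives were median scaling, quantile normalization, normexp with an offset of 50, the log2 table, no filter, a filter at 8 arrays, a floor for dim spots, the brightest probe per gene, slide as a block, each slide alone, and each array left out. Symbols and promoters are from RefSeq (GRCm38.p6). Protein sequences were not used here, and 1 gene of the B cell list is not reported here.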

Additional observations from a re-analysis of the deposited data

Results flagged for a closer look

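Etohi1 was the 1 tested member whose genotype difference differed between the slides by limma's test, with the slide 2 difference 2.17 larger than that of slide 1 on the log2 scale (adjusted p 0.00284). Its wild-type arrays were not well above background on either slide. Etohi1 passed the filter on dim probes only through deficient arrays, so nothing is read from this value.

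In 11 of 144 groups of 4 arrays a single array stood apart from the other 3 by Dixon's test, and chance marks about 1 group in 20. Wild-type array 5 of slide 2 was that array in 6 of them. It read lowest for Gm14322 at -0.85, for the printed probe of Gm14325 at 1.72, for Gm14326 at -2.73 and 1.0 with separate probes and for the second probe of Zfp931 at -3.05, and highest for Gm14407 at 8.15. Without that array the members called higher over both slides stayed at 26. Wild-type array 2 of slide 1 read lowest for the second probe of Zfp931 at -4.1, and deficient array 4 of slide 2 highest for Gm14431 at 1.24. 9030418K01Rik was highest on deficient array 12 of slide 1 at -4.51 and on wild-type array 3 of slide 2 at -2.15. Ppp1r3d was lowest on deficient array 2 of slide 2 at -5.78.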

How the results depend on the processing

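Over both slides 26 members were called higher and 0 lower, with 20 to 27 higher and 0 lower under the alternatives run, the lowest where 1 probe stood for each gene. Among the 10 arrays with Ddx3y 22 were called higher. There BC110427 (0.22, adjusted p 0.213), ENSMUST00000108969, ENSMUST00000133301, Gm14406 and C330013J21Rik lost their limma call, as did Atf7ip and Pphln1, and AK145429 gained one (0.54, adjusted p 0.0497). The median of 0.91 moved to 0.61 with normexp. Leaving out each array in turn gave 26 to 26 higher and 0 to 0 lower over both slides, 23 to 26 and 0 to 2 on slide 1, 23 to 25 and 0 to 0 on slide 2, 25 to 27 and 3 to 4 between slides, 1 to 3 and 0 to 1 for the difference between the slides' differences, and a median of 0.79 to 0.98. The single lower call on slide 1 (Gm14407) became 0 with quantile normalization, the log2 table, no filter, a floor for dim spots, slide 1 fitted alone, a term for Ddx3y or its arrays alone. Between slides the 3 lower calls became 7 with median scaling, 5 with quantile normalization and 5 with no filter. The 1 call on the difference of differences became 2 with median scaling, no filter or a floor, 7 with normexp and 0 with a filter at 8 arrays. Except for that filter and the 1-probe-per-gene setting, which change what is tested, the cause was not tested.

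Numbers 1, 2 and 3 occur in both genotypes of slide 2. Deviations of same-numbered samples correlated by 0.0137, 0.0966 and 0.063, so the numbers were not taken to pair samples. With the replicate block on these 6 arrays 14 members were called higher on slide 2, and with no block on the same arrays 24, against 25 in all. Dnmt3b lost its call under 4 alternatives and without any of 10 single arrays. Pphln1 lost it with slide as an additive (adjusted p 0.0537) or random block (0.106) in limma. Of all probes called over both slides, 45.1% were higher, and 59.8% with median scaling. Between slides these were 65.3% and 51.1%, and on slide 2 48.9% and 65.4%. Signal over background limits the dimmest members, Etohi1 and C330013J21Rik among them.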

Other observations

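The 71 probes of the window that carry a coordinate in place of a gene name were left out of the members. Of these 26 were tested, and 14 were called higher in deficient than in wild-type arrays over both slides and 0 lower by limma, with 17 higher and 0 lower at an unadjusted p under 0.05. Their median difference was 0.69 on slide 1 and 0.96 on slide 2. With 1 sign on both slides 13 were called higher, beside 6.79% of all tested probes. Between the slides 21 of the 26 were called higher on slide 2 and 0 lower, with a median of 1.45, beside 53.2% higher, 28.3% lower and a median of 0.37 over all tested probes. The 26 were dim, with median levels of -4.9 in wild-type and -4.22 in deficient arrays of slide 1. On slide 2 these were -3.77 and -2.99. Some may have passed the filter, at 4 of 16 arrays, only through the group or slide where they read high. Nothing is read from these shares and medians. The contrast between genotypes is the one from which the cluster was chosen.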
